A study of Rattus norvegicus with 16 samples.

Results

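The 7 mitochondrially encoded subunits of respiratory complex I were described across 4 subfields of the rat hippocampus. The genes are Mt-nd1 (ENSRNOG00000030644), Mt-nd2 (ENSRNOG00000031033), Mt-nd3 (ENSRNOG00000033615), Mt-nd4l (ENSRNOG00000031053), Mt-nd4 (ENSRNOG00000029707), Mt-nd5 (ENSRNOG00000029971) and Mt-nd6 (ENSRNOG00000029042). They were found by Ensembl identifier and are 7 of the 32883 genes in the table of counts, and all 7 passed the filter on low counts. Tissue came from male Wistar rats aged 3 months, and the methods give 4 rats. The granular layer of the dentate gyrus (DG) and the pyramidal layer of each of CA1, CA2 and CA3 were cut from Nissl-stained sections by laser capture microdissection, with the subfields found by atlas. The rats were anesthetized with isoflurane and decapitated. No treatment or genotype separated the groups, so that the 6 comparisons (CA1vsCA2, CA1vsCA3, CA2vsCA3, CA1vsDG, CA2vsDG and CA3vsDG) ask how the subfields of these rats differ.

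Complex I takes electrons from NADH, passes them to ubiquinone and pumps protons across the inner mitochondrial membrane, which drives ATP synthesis. Most of its subunits are nuclear genes, while the core of its membrane arm is encoded in mitochondrial DNA. There, both strands are transcribed as long RNAs that are cut into single messages, and Mt-nd6 is the only messenger RNA gene of the light strand, with the other members on the heavy strand. Neurons depend heavily on this pathway, since most of their ATP is spent on ion pumping and synaptic transmission.

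Each subfield had 4 libraries, numbered 1 to 4. Replicates 2 and 4 of CA2 were as close as 2 counts of the same library (chi-square per degree of freedom 0.999 over 11864 genes, p = 0.515), and those of DG nearly so (1.04 over 12602 genes, p = 0.00271), while the other 22 pairs within a subfield gave 2.96 to 47.2. The counts of each of these pairs were summed and counted as 1 sample, written below as CA2 replicate 2 and DG replicate 2, which left 14 libraries, 4 each for CA1 and CA3 but 3 each for CA2 and DG. No source used here states that a number stands for a rat, so that p-values measure the spread between these samples. The methods give 4 rats for the 16 libraries, and the labels repeat the same 4 numbers in every subfield. Libraries of different subfields may therefore come from the same rats. The main fit and the permutation tests treat them as separate samples, and fits with a term for the number are given further below. Column sums were taken without the 2 mitochondrial rRNA genes, ENSRNOG00000043866 and ENSRNOG00000030478. Without them the 16 libraries held 2474076 to 9528305 counts, a ratio of 3.85, and CA1 replicate 4 was the smallest.

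A group of libraries stood apart in the members. The 4 libraries numbered 1 had far more Mt-nd6 than the rest of their subfields, and CA3 replicate 3 had the highest level of 5 members, so that results are given with and without them below. Leaving out all libraries numbered 1 was chosen after the values were seen, while leaving out each single library was chosen before. The 2 rRNA genes took 31.1% of the counts in CA3 replicate 3, more than in any other library, and 16.1% to 20.5% in the 4 libraries numbered 1, each the lowest of its subfield.

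The subfield labels were set against markers. Of 15 subfield markers listed, 9 could be paired with an identifier, which was taken from the study's own list of possible markers. That list holds genes picked as far higher in a single subfield of these samples. Markers absent from it were not looked at. Each of the 9 was higher in all libraries of its own subfield than in every other library. Amigo2, a cell adhesion gene marking CA2, was at 122 to 195 CPM (counts scaled to equal library size) in CA2 and at 4.06 to 28.2 elsewhere. Prox1, a transcription factor of granule cells, was at 366 to 516 in DG and at 2.87 to 24.5 elsewhere. The study chose these markers on the same samples, so that this outcome was largely fixed beforehand and is not independent evidence. Markers of glia and interneurons were not analysed here.

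Together the members took 0.218% to 0.224% of the column sum in DG, 0.204% to 0.255% in CA1, 0.242% to 0.318% in CA2 and 0.259% to 0.415% in CA3. All CA3 libraries were above all CA1 and DG libraries on this scale, and all CA2 libraries were above all DG libraries. CA3 replicate 3, at 0.415%, was the highest of all libraries, and the next was CA2 replicate 2 at 0.318%.

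**Figure D1:**
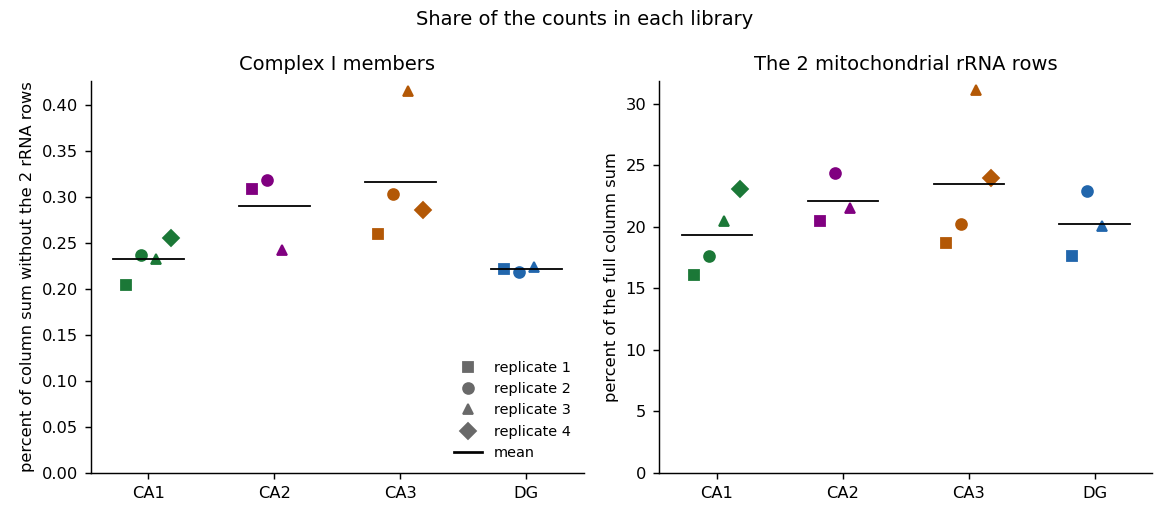
Percent of the counts in each library taken by the 7 members (left, of the column sum without the 2 rRNA genes) and by the 2 mitochondrial rRNA genes (right, of the full column sum), with 1 point per library and a line at the mean of each subfield. The members reached 0.415% in CA3 replicate 3, where the rRNA genes were also at their highest, 31.1%.

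Levels are given below as CPM, scaled with TMM factors, and are not compared between genes because gene lengths were not used here. Mt-nd1 forms the joint of the membrane arm with the arm that takes up electrons, beside the ubiquinone site. Its CPM was 682, 844, 859 and 957 in CA1 replicates 1 to 4, and 1169.6, 1301 and 991 in CA2 replicates 1 to 3. In CA3 replicates 1 to 4 it was 931, 1166, 1555 and 1109, and in DG replicates 1 to 3 it was 712, 762 and 792. Every CA2 and CA3 library was above every DG library, whereas CA1 lay between, below CA2 and overlapping CA3 and DG. By mean the order was CA3 (1190.4 ± 263, SD, n = 4), CA2 (1154 ± 155, n = 3), CA1 (836 ± 114, n = 4) and DG (755 ± 40.4, n = 3), in which CA3 and CA2, and CA1 and DG, did not differ beyond their spread.

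Mt-nd2, one of the antiporter-like subunits that form proton channels, was at 438, 542, 546 and 572 CPM in CA1 replicates 1 to 4, and at 689, 774 and 535 in CA2. It was at 579, 772, 1164 and 739 CPM in CA3 and at 384, 445 and 459 in DG. The lowest CA3 library was above the highest CA1 library, and all DG libraries were below all CA2 and CA3 libraries. Mt-nd3, a small subunit with a loop near the ubiquinone site, was at 293, 332, 299 and 331 CPM in CA1 and at 464, 460.5 and 408 in CA2. In CA3 replicates 1 to 4 it was at 401, 451, 630.0 and 452 CPM, and in DG at 272, 297 and 244. No CA1 or DG library reached any CA2 or CA3 library, so that Mt-nd3 was the member with the clearest division of the subfields, CA2 and CA3 (means 444 ± 31.4 and 484 ± 100.4, SD, n = 3 and 4) against CA1 and DG (314 ± 20.8 and 271 ± 26.4, n = 4 and 3).

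Mt-nd4l is a small membrane subunit, and its message is shared with Mt-nd4. It was at 38.8, 60.1, 58.1 and 60.8 CPM in CA1, and at 63.6, 56.0 and 59.8 in CA2. In CA3 it was at 48.6, 82.1, 114 and 71.4 CPM, and in DG at 39.5, 52.4 and 50.9. CA3 replicate 1 lay within the CA1 and DG values and the other CA3 libraries were above every library of the other subfields. Mt-nd4, an antiporter-like subunit, had few counts, from 24 to 179 per library. Mt-nd4l had 3.73 to 8.08 times as many in every library although the message is shared. The cause was not tested, so that the Mt-nd4 values here and in the comparisons below are uncertain as levels of that gene. The CPM of Mt-nd4 was 7.57, 14.1, 7.19 and 9.47 in CA1 and 14.8, 13.7 and 8.65 in CA2. It was 10.9, 19.6, 15.5 and 12.03 CPM in CA3, and 10.6, 6.74 and 7.03 in DG. The CA3 libraries were above the DG libraries by a narrow gap, and the CA1 and CA2 values overlapped both. Mt-nd5, the antiporter-like subunit at the far end of the arm, was at 410.0, 501, 487 and 531 CPM in CA1 and at 609, 601 and 495 in CA2. It was at 544, 634, 912 and 552 CPM in CA3, and at 469, 476 and 536 in DG. All CA3 libraries were above all CA1 and DG libraries, but DG replicate 3 and CA3 replicate 1 were only 536 and 544 apart in value.

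Mt-nd6, a membrane subunit next to Mt-nd3 and Mt-nd4l, behaved unlike the other members. Its CPM was 143, 34.97, 25.7 and 32.0 in CA1 replicates 1 to 4, and 184, 11.1 and 10.5 in CA2 replicates 1 to 3. In CA3 replicates 1 to 4 it was 179.6, 31.8, 56.3 and 20.5, and in DG replicates 1 to 3 it was 128, 19.5 and 28.4. The library numbered 1 was the highest in every subfield and above every library with another number. The means of the 4 subfields, 72.1 ± 73.2 in CA3, 68.5 ± 99.9 in CA2, 58.9 ± 56.3 in CA1 and 58.5 ± 60.0 in DG (SD, n = 4, 3, 4 and 3), had SDs of 56.3 or more.

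**Figure D2:**
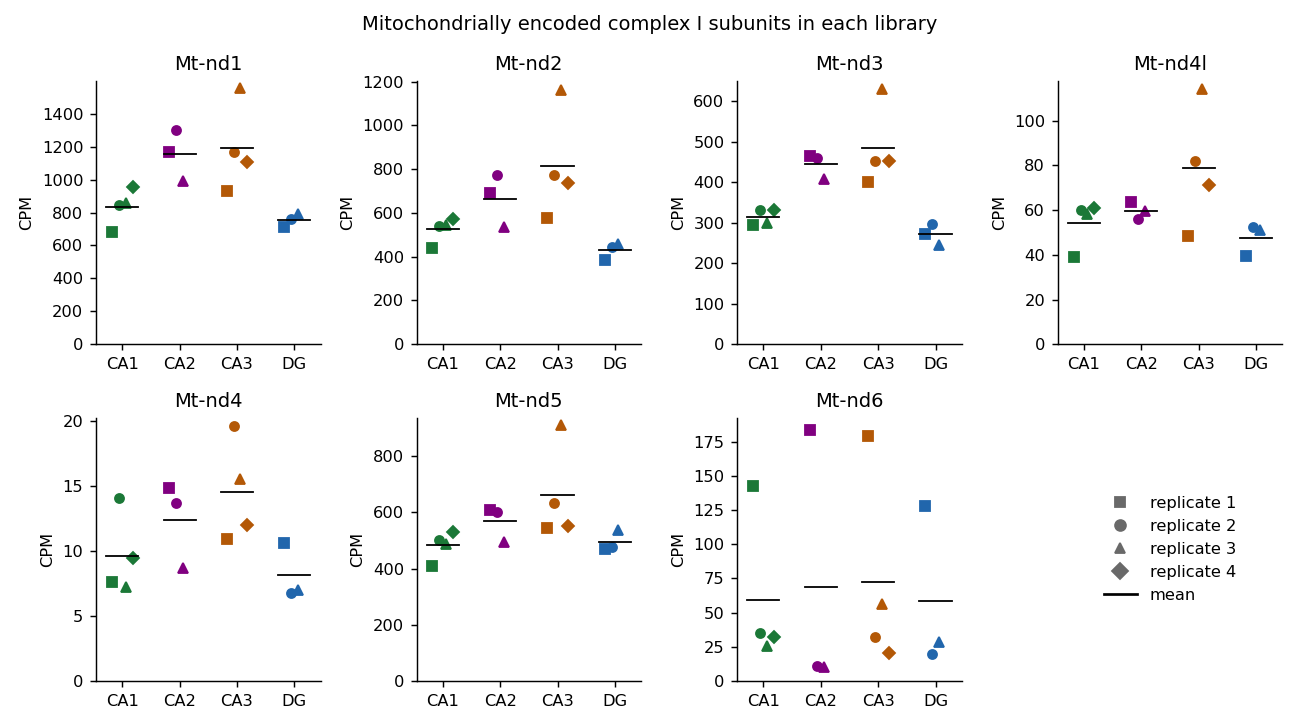
CPM of each member (vertical axis, starting at 0) in each library of the 4 subfields, with 1 point per library, marker shape by replicate number, and a line at the mean. Mt-nd3 is at 401 to 630.0 in CA3 and at 244 to 297 in DG, while Mt-nd6 is at 128 to 184 in the libraries numbered 1 and at 10.5 to 56.3 in the others.

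The subfields were compared with edgeR's quasi-likelihood test in 1 fit to the 14 libraries, with p-values adjusted by the Benjamini-Hochberg method over the 17172 genes tested, and a gene with an adjusted p under 0.05 is written as called. The comparisons share libraries, so that they are not independent of each other. In bulk tissue, fewer cells of a type and less RNA per cell cannot be told apart.

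Granule cells of DG are small neurons that fire rarely, and their mossy fibres reach the large pyramidal cells of CA3. CA3 cells also excite each other through dense recurrent axons. CA3vsDG had the most members called. There, 6 of the 7 were higher in CA3, against 19.6% of all tested genes called in that direction and 40.1% in either. The libraries of CA3 and DG did not overlap for 5 members, against 42.6% of all genes. The median log2 fold change of the members was 0.72, against -0.04 over all genes. Mt-nd2 had a log2 fold change of 0.92 ± 0.17 (SE, edgeR adjusted p = 2.31e-04), which is 1.89 times higher in CA3. Mt-nd4 was 0.90 ± 0.27 higher on the log2 scale (edgeR adjusted p = 0.00980), Mt-nd3 0.83 ± 0.13 (edgeR adjusted p = 2.18e-05) and Mt-nd4l 0.72 ± 0.21 (edgeR adjusted p = 0.00796). For Mt-nd1 the difference was 0.66 ± 0.14 (edgeR adjusted p = 9.49e-04), and for Mt-nd5 it was 0.42 ± 0.15 (edgeR adjusted p = 0.0267), the smallest of those called. Mt-nd6 had 0.36 ± 0.87 (edgeR adjusted p = 0.777) in this fit, which has no term for the replicate number. Some fits with that term, given further below, called Mt-nd6 in CA3vsDG. Without CA3 replicate 3 the differences of Mt-nd1, Mt-nd2 and Mt-nd3 were 0.52, 0.71 and 0.70, all still called, and that of Mt-nd5 was 0.24 (edgeR adjusted p = 0.108). Mt-nd5 also lost its call without DG replicate 1 or 2 (edgeR adjusted p = 0.0780 and 0.0757) and with column sums as the only scaling (0.25, edgeR adjusted p = 0.163), and Mt-nd4 without DG replicate 2 (edgeR adjusted p = 0.0650).

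CA3 sends its Schaffer collaterals to CA1, whose cells carry the main output of the hippocampus. CA1 cells have few recurrent connections with each other, unlike those of CA3. In CA1vsCA3, 5 members were lower in CA1 than in CA3, against 12.9% of all genes called as higher in CA3 and 24.9% in either direction. The libraries of these subfields did not overlap for 3 members, Mt-nd2, Mt-nd3 and Mt-nd5, against 24.4% of all genes. The members' median log2 fold change, as CA1 over CA3, was -0.55, and that of all genes -0.01. Mt-nd2 had -0.64 ± 0.16 (edgeR adjusted p = 0.00493) and Mt-nd3 -0.62 ± 0.12 (edgeR adjusted p = 3.61e-04), a level 1.54 times higher in CA3 for Mt-nd3. Mt-nd4l had -0.55 ± 0.19 (edgeR adjusted p = 0.0387), Mt-nd1 -0.51 ± 0.13 (edgeR adjusted p = 0.00613) and Mt-nd5 -0.46 ± 0.14 (edgeR adjusted p = 0.0163). Those not called were Mt-nd4, at -0.60 ± 0.24 (edgeR adjusted p = 0.0737), and Mt-nd6, at -0.26 ± 0.79 (edgeR adjusted p = 0.857). With CA3 replicate 3 left out, 3 members were called, Mt-nd1 (-0.34), Mt-nd2 (-0.40) and Mt-nd3 (-0.46). The Mt-nd5 difference was then -0.25 (edgeR adjusted p = 0.114), and it also lost its call without CA1 replicate 1 (edgeR adjusted p = 0.0712). For Mt-nd4l the call was lost with column sums only (-0.45, edgeR adjusted p = 0.0800), in a fit to CA1 and CA3 alone (edgeR adjusted p = 0.0610) and when any 1 of 10 libraries was left out, which were all 4 of CA1, CA2 replicates 2 and 3, CA3 replicates 2 and 3 and DG replicates 2 and 3 (edgeR adjusted p = 0.0511 to 0.241). The Mt-nd4l difference was then -0.31 without CA3 replicate 3, -0.39 without CA1 replicate 1 and -0.60 to -0.52 without any other of the 10. Among the fits without a term for the replicate number, Mt-nd4 was called without CA1 replicate 2 (-0.90, edgeR adjusted p = 0.0121), without CA3 replicate 1 (-0.71, edgeR adjusted p = 0.0427) and with no filter on low counts (edgeR adjusted p = 0.0253). Its difference was smallest without CA3 replicate 2 (-0.40, edgeR adjusted p = 0.289). Fits to all libraries with a term for the number, given further below, also called Mt-nd4.

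CA2 is a short stretch of large pyramidal cells between CA3 and CA1 that is needed for social memory. It takes strong direct input from the entorhinal cortex, as do the granule cells of DG. In CA2vsDG, 3 members were higher in CA2, against 17.8% of all genes in that direction and 35.6% in either. Libraries did not overlap for 4 members, against 47.4% of all genes. Mt-nd3 had a log2 fold change of 0.71 ± 0.13 (edgeR adjusted p = 2.66e-04), Mt-nd2 of 0.63 ± 0.18 (edgeR adjusted p = 0.00982) and Mt-nd1 of 0.61 ± 0.15 (edgeR adjusted p = 0.00321). Mt-nd4 had a difference of the same size, 0.64 ± 0.29 (edgeR adjusted p = 0.0892), with a wider error. In fits with no term for the number it was called without CA2 replicate 3 (0.85, edgeR adjusted p = 0.0387), without DG replicate 1 (0.84, edgeR adjusted p = 0.0423), with the 16 libraries counted separately (edgeR adjusted p = 0.0275) and with no filter (edgeR adjusted p = 0.0407). Fits to all libraries with such a term, given further below, also called Mt-nd4. Mt-nd2 lost its call without CA2 replicate 2 (0.51, edgeR adjusted p = 0.0550). The differences of Mt-nd4l (0.32 ± 0.22), Mt-nd5 (0.20 ± 0.16) and Mt-nd6 (0.25 ± 0.93) were not called. The median of the members was 0.61, and that of all genes -0.03.

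CA1 and CA2 lie side by side, and CA2 cells excite those of CA1. They differ in plasticity, which is weak at the inputs of CA2 from CA3 and strong at those of CA1. CA1vsCA2 had 2 members called, both higher in CA2, against 7.97% of all genes in that direction and 14.3% in either. The same 2 members were those whose libraries did not overlap, against 24.0% of all genes. As CA1 over CA2, Mt-nd3 had -0.50 ± 0.12 (edgeR adjusted p = 0.00788) and Mt-nd1 -0.47 ± 0.14 (edgeR adjusted p = 0.0285). The Mt-nd1 call was lost with column sums only (-0.40, edgeR adjusted p = 0.0559) and when any 1 of 8 libraries was left out, CA1 replicates 1, 2 and 3, CA2 replicates 1 and 2, CA3 replicate 2 and DG replicates 2 and 3 (edgeR adjusted p = 0.0505 to 0.171). The others had log2 fold changes of -0.35 (Mt-nd2), -0.34 (Mt-nd4), -0.24 (Mt-nd5), -0.14 (Mt-nd4l) and -0.14 (Mt-nd6), with a median over the 7 of -0.34. Some fits with a term for the replicate number, given further below, called Mt-nd2 or Mt-nd4 in CA1vsCA2.

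CA2 and CA3 cells are alike in size, and both have larger bodies than the cells of CA1. CA1 and DG hold the last and the first cells of the classical circuit through the hippocampus. In the fit without a term for the replicate number, CA2vsCA3 and CA1vsDG had 0 members called by edgeR's quasi-likelihood test, against 7.71% and 29.6% of all genes. At an unadjusted p under 0.05 the count was 0 in both, and DESeq2 also called 0 in both. In CA2vsCA3 the log2 fold changes ran from -0.41 ± 0.20 (Mt-nd4l, edgeR adjusted p = 0.307) to -0.05 ± 0.14 (Mt-nd1), and Mt-nd4l was called without CA3 replicate 1 (-0.59, edgeR adjusted p = 0.0457). With CA3 replicate 3 left out instead, the Mt-nd4l difference was -0.18 (edgeR adjusted p = 0.751). In CA1vsDG they ran from -0.04 ± 0.15 (Mt-nd5) to 0.30 ± 0.28 (Mt-nd4, edgeR adjusted p = 0.463), and Mt-nd2 (0.29 ± 0.17) was called in a fit to CA1 and DG alone (0.30, edgeR adjusted p = 0.0389). These values do not show that the subfields were alike. Fits to all libraries with a term for the replicate number, given further below, called Mt-nd6 in CA2vsCA3.

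**Figure D3:**
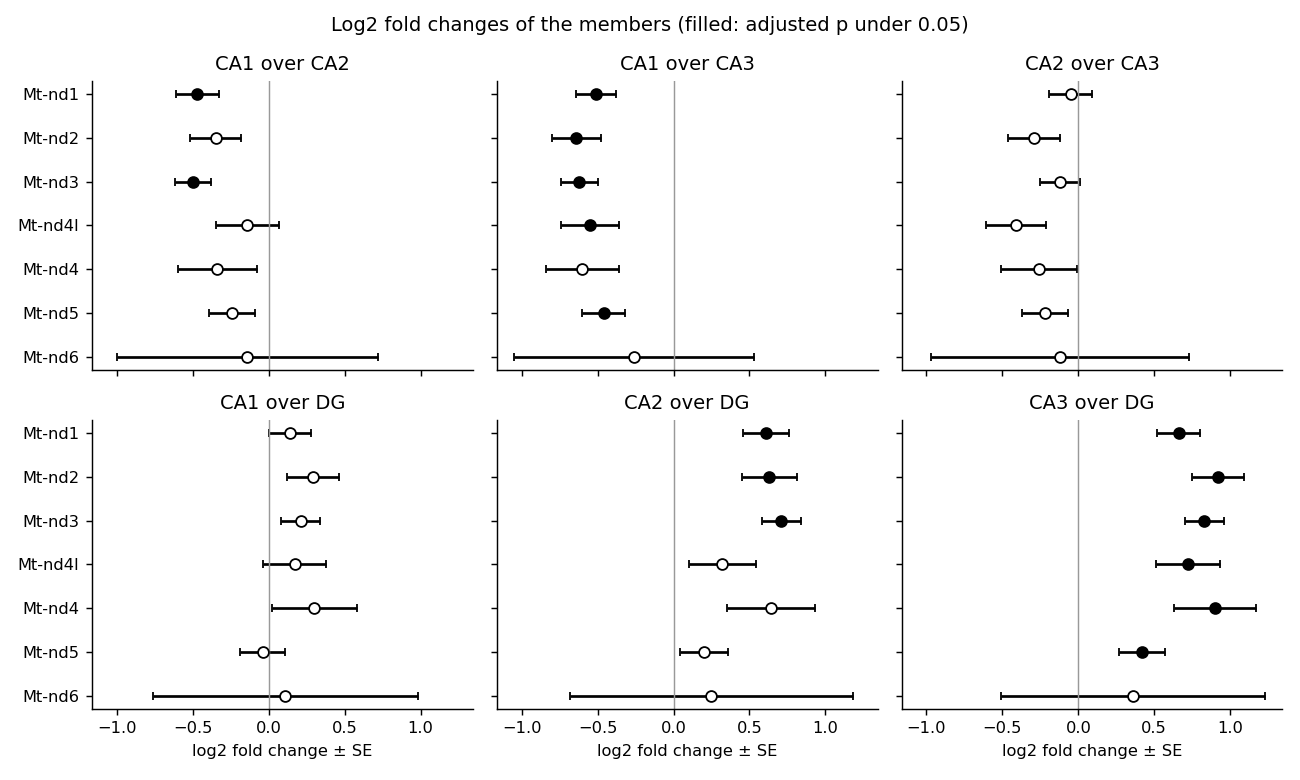
Log2 fold change of each member (horizontal axis, first subfield over second) in the 6 comparisons, with bars of 1 SE, from edgeR's quasi-likelihood fit to 14 libraries; filled points have an adjusted p under 0.05. Filled points lie left of 0 in CA1 over CA2 and CA1 over CA3 and right of 0 in CA2 over DG and CA3 over DG, and Mt-nd6 has the widest bars, 0.79 to 0.93.

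Of the 16 calls of a member in a comparison, 9 held in all 29 alternative settings, and none of the 16 turned its direction in any. The 9 were Mt-nd1, Mt-nd2 and Mt-nd3 in CA1vsCA3, Mt-nd1 and Mt-nd3 in CA2vsDG, and Mt-nd1, Mt-nd2, Mt-nd3 and Mt-nd4l in CA3vsDG. Column sums as the only scaling moved the median log2 fold change of all genes from -0.04 to -0.20 in CA3vsDG and from -0.03 to -0.17 in CA2vsDG. On that scaling 33.9% of the genes called in CA3vsDG were higher in CA3, against 48.9% with TMM, and 37.2% against 50.1% were higher in CA2 in CA2vsDG. The share higher in CA1 went from 44.4% to 55.1% in CA1vsCA2 and from 48.0% to 61.1% in CA1vsCA3.

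The high Mt-nd6 of the libraries numbered 1 was compared with the rest of each subfield. For CA1 replicate 1 Mt-nd6 was 4.64 times the mean of the other CA1 libraries, in CA2 replicate 1 17.1 times, in CA3 replicate 1 4.96 times and in DG replicate 1 5.33 times. For the heavy-strand members the same ratio was 0.545 to 1.54, so that no other member was raised in this way. In CA1 and CA3, 6 members were lower in replicate 1 than the mean of the other libraries, at 0.649 to 0.913 times in CA1 and 0.545 to 0.784 times in CA3. The count was not small, since replicate 1 held 542 Mt-nd6 counts in DG, 922 in CA2, 1097 in CA1 and 1139 in CA3. Among all 17172 genes tested, Mt-nd6 was the only one more than 2 times above every other library of the subfield in replicate 1 of all 4 subfields, and 1 gene, ENSRNOG00000014090, was likewise below. For replicate 3, 1 gene was above by the same measure, ENSRNOG00000037364, and 0 below.

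**Figure D4:**
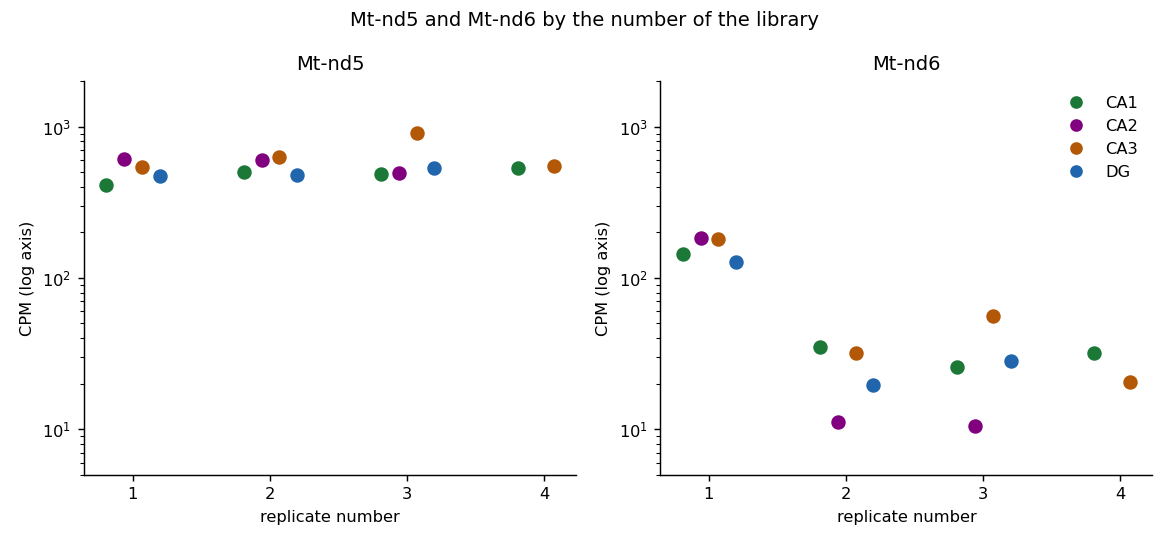
CPM of Mt-nd5 (left) and Mt-nd6 (right) on log axes against the replicate number of the library, with 1 point per library coloured by subfield; CA2 and DG replicate 2 hold the summed pairs. Mt-nd6 is at 128 to 184 in the 4 libraries numbered 1 and at 10.5 to 56.3 in the other 10, while Mt-nd5 is at 410.0 to 609 and at 476 to 912.

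Mt-nd6 and Mt-nd5 lie next to each other on opposite strands, and whether the reads were counted by strand is not given in the sources used here, so that reads of one strand counted on the other gene cannot be told apart. The ratio of Mt-nd6 to Mt-nd5 counts within a library does not depend on library size. It was 0.349, 0.302, 0.330 and 0.272 in replicate 1 of CA1, CA2, CA3 and DG, and 0.0184 to 0.0698 in the other 10 libraries. The difference by number was thus present without any scaling. Between subfields the mean log2 ratio was -3.41 ± 1.27 in CA1, -3.58 ± 1.48 in DG, -3.67 ± 1.41 in CA3 and -4.35 ± 2.27 in CA2 (SD), and in none of the 6 comparisons did it differ beyond this spread (two-sided exact permutation tests, adjusted p = 0.748 to 0.914 over 12 tests). These tests ignore the replicate number, so that the high ratios of the libraries numbered 1 are part of the spread. Differences within a number were not tested. The smallest exact permutation p possible is 0.0286 for 4 against 4 libraries, 0.0571 for 4 against 3 and 0.100 for 3 against 3. Every comparison but CA1vsCA3 therefore could not reach the threshold, and the result there does not show that the ratios were alike.

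The ratio of Mt-nd1 to Mt-nd5 had far smaller spreads within subfields. Its mean log2 value was 1.02 ± 0.09 in CA2, 0.86 ± 0.11 in CA3, 0.79 ± 0.06 in CA1 and 0.61 ± 0.06 in DG (SD, n = 3, 4, 4 and 3). The largest difference was 0.40 in CA2vsDG (exact permutation p = 0.100, the smallest that 3 against 3 libraries allow, adjusted p = 0.300). CA1vsCA2, CA1vsDG and CA3vsDG each had the smallest p that 4 against 3 libraries allow (exact permutation p = 0.0571, adjusted p = 0.229), so that in these comparisons every library of a subfield was on one side, and the design could not reach the threshold. The libraries overlapped in CA1vsCA3 (-0.07, exact permutation p = 0.343) and in CA2vsCA3 (0.16, exact permutation p = 0.171).

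The fit was repeated without the libraries numbered 1, which leaves 3 each for CA1 and CA3 but 2 each for CA2 and DG. In CA3vsDG 6 members were then called, against 37.3% of the 16716 genes tested, 5 in CA1vsCA3 (23.3%), 4 in CA2vsDG (30.6%), 2 in CA2vsCA3 (7.19%), 1 in CA1vsCA2 (10.6%) and 0 in CA1vsDG (27.3%). Of heavy-strand members, Mt-nd1 and Mt-nd3 were no longer called in CA1vsCA2 (-0.35 and -0.42, edgeR adjusted p = 0.111 and 0.0608), and Mt-nd4l was called in CA2vsCA3 (-0.63 ± 0.16, edgeR adjusted p = 0.0144). Mt-nd6 was then lowest in CA2, where both libraries (11.1 and 10.5 CPM) were below all those of CA1 (25.7 to 34.97), CA3 (20.5 to 56.3) and DG (19.5 and 28.4). Its log2 fold change was 1.54 ± 0.30 in CA1vsCA2 (edgeR adjusted p = 0.00142), -1.78 ± 0.30 in CA2vsCA3 (edgeR adjusted p = 3.65e-04) and -1.12 ± 0.32 in CA2vsDG (edgeR adjusted p = 0.0108). The CA2 libraries numbered 2 and 3 had a log2 ratio of Mt-nd6 to Mt-nd5 of -5.66 ± 0.14, against -4.05 ± 0.20 in CA1, -4.36 ± 0.37 in CA3 and -4.42 ± 0.27 in DG (SD, n = 2, 3, 3 and 2). By exact permutation these ratios did not differ at the threshold (adjusted p = 0.436 for CA2 against each), and the smallest exact permutation p for 2 against 3 libraries was 0.200. The libraries left out were picked for the Mt-nd6 values themselves, and in CA2 replicate 1 Mt-nd6 was the highest of all libraries.

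These are RNA levels in tissue layers, and neither complex I protein nor respiration was measured. The groups have 3 or 4 libraries, and the summed pairs leave CA2 and DG with the fewest. Glia and interneurons within the layers contribute RNA, and their share was not measured here. Counts of mitochondrial genes, Mt-nd6 included, may hold reads of near-identical copies in nuclear DNA or of the opposite strand. The share of such reads was not measured for any member. The number shared by libraries may stand for a rat, a dissection or a batch, and these cannot be told apart. Other mitochondrial messages and nuclear complex I genes were not analysed here, so that whether the differences are limited to these members was not tested.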

How the data were processed

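Total RNA from laser-captured subfields was made into stranded libraries and sequenced by the authors, who aligned the reads with STAR to Rnor6. They deposited counts of reads per Ensembl gene for 16 libraries, without normalization. The counting program and its use of strand are not given in the sources used here, so counts of overlapping or antisense genes, and of mitochondrial genes with near-identical nuclear copies, are uncertain. The authors' tables of fold changes and p-values were not used.

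Pairs of libraries with a chi-square per degree of freedom under 1.1, over genes with at least 20 counts, were summed. The 2 mitochondrial rRNA genes were removed before column sums. Genes with more than 10 counts in all were fitted with edgeR 4.0.16 (limma 3.58.1, R 4.3.3), with TMM, 1 coefficient per subfield, quasi-likelihood F-tests and Benjamini-Hochberg adjustment. SE was taken from the size of the log2 fold change and the F value. CPM are TMM-scaled. Log2 CPM, used for the comparison of library numbers over all genes and for correlations, had a prior count of 2. Ratios were taken from counts and tested by two-sided exact permutation with scipy 1.17.1 (Python 3.11.15, numpy 2.4.6, pandas 2.3.3), and plots used matplotlib 3.10.9. Alternatives were DESeq2 1.42.0, other scalings, filters and library sizes, the replicate number as a replicate block (CA2vsCA3: 1 member called), fits to 2 subfields, and leaving out each library. The procedure was tested on simulated counts.

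All 7 members were named in every comparison. Members and lists were chosen with earlier results of these data known. Lists of nuclear complex I genes, of mitochondrial RNA factors and of the other mitochondrial messages were not analysed here, because the tables used do not pair their names with identifiers. Mt-nd4 had the fewest counts, with 24 in CA1 replicate 4. It had fewer than Mt-nd4l in every library, and the cause was not tested.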

Additional observations from a re-analysis of the deposited data

Results flagged for a closer look

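In the groups of 4 libraries, CA1 and CA3, 22 sets of values were checked for a library far from the other 3, relative to the range, and 3 were found, all of them CA1 replicate 1. Chance gives about 1 in 20. Mt-nd6 was at 143 CPM in CA1 replicate 1 and at 25.7 to 34.97 in the other CA1 libraries. The log2 ratio of Mt-nd6 to Mt-nd5 was -1.52 there, with a mean of -4.05 in the others. Mt-nd4l was at 38.8 CPM in this library and at 58.1 to 60.8 in the other 3. The share of counts in the 2 mitochondrial rRNA genes was also lowest in this library, at 16.1%, and its part in these values was not tested.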

How the results depend on the processing

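With any 1 library left out, the members called numbered 1 to 2 in CA1vsCA2, 3 to 6 in CA1vsCA3, 0 to 1 in CA2vsCA3, 0 in CA1vsDG, 2 to 4 in CA2vsDG and 4 to 6 in CA3vsDG. In the same order, all genes called numbered 1706 to 2525, 3624 to 4389, 883 to 1366, 4062 to 5155, 5070 to 6302 and 5718 to 7115. Column sums only gave 1 in CA1vsCA2 and 4 in CA1vsCA3, and lost Mt-nd5 in CA3vsDG. A fit to 2 subfields gave 4 in CA1vsCA3 and 1 in CA1vsDG. No filter on low counts gave 6 in CA1vsCA3. Mt-nd4 was added in CA2vsDG with no filter and with 16 libraries counted separately. DESeq2, median-of-ratios factors, the 2 rRNA genes kept and filterByExpr gave the same counts of members in every comparison, as did column sums and TMM taken without the members, which was chosen after seeing the data.

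The replicate block treats the replicate number as a shared source. Deviations from the subfield means correlated at r = 0.54 to 0.63 between libraries numbered 1, -0.07 to 0.22 for number 2, -0.09 to 0.31 for number 3 and 0.15 to 0.38 for number 4. As a hint of a shared source, 12 of 16 libraries correlated best with their own number. The number was kept out of the fit because no label says what it marks and some same-numbered libraries did not deviate together. The replicate block had 3 forms: 16 libraries, pairs under number 2, and pairs under number 4. Genes called in CA2vsCA3 were 1738 with 16 libraries and 2616 with the block added, and 1324 with 14 libraries and 2018 or 2235 with it. In CA1vsCA2, 16 libraries gave 2881 and 3850 with the block. Its forms added calls of Mt-nd4 in CA1vsCA3 (-0.63, -0.64 and -0.65, edgeR adjusted p = 0.0116, 0.0185 and 0.00582) and in CA2vsDG (0.73, 0.65 and 0.65, edgeR adjusted p = 0.00626, 0.0334 and 0.0146). Mt-nd6 was called in CA2vsCA3, the 1 member there (-0.92, -0.93 and -0.80, edgeR adjusted p = 0.00872, 0.0235 and 0.0367). The first 2 forms also called Mt-nd6 in CA3vsDG (0.65 and 0.67, edgeR adjusted p = 0.0257 and 0.0428), where all 7 members were then called. Genes called there were 8344 and 7727 of the 17172 tested, against 7555 and 6883 without the block. In CA1vsCA2 the first form added Mt-nd2 (-0.41, edgeR adjusted p = 0.0121) and the third Mt-nd4 (-0.59, edgeR adjusted p = 0.0447). These 3 forms lost no call. Mt-nd6 turned in them to 0.64, 0.66 and 0.50 in CA1vsCA2 and to -0.28, -0.26 and -0.27 in CA2vsDG, none of these called. Its gene-wise dispersion was 0.552 without the block and 0.0545 with it. Mt-nd1 in CA2vsCA3 turned to 0.01 with 16 libraries.

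Without the libraries numbered 1, chosen after seeing the data, 1 member was called in CA1vsCA2 and 2 in CA2vsCA3. Mt-nd6 turned to 1.54 in CA1vsCA2 and -1.12 in CA2vsDG, Mt-nd4l to 0.06 in CA1vsCA2, Mt-nd5 to 0.03 in CA1vsDG, and the Mt-nd6 to Mt-nd5 ratio to 0.06 in CA3vsDG. With the replicate block added (pairs under number 2) the members called were 1 in CA1vsCA2, 2 in CA2vsCA3, 1 in CA1vsDG and 5 in CA2vsDG. All genes called there were 1674, 1274, 4523 and 5066. In this fit Mt-nd6 was at 1.69 in CA1vsCA2 and -1.11 in CA2vsDG, Mt-nd4l at 0.13 in CA1vsCA2 and Mt-nd5 at 0.10 in CA1vsDG. Mt-nd6 was then called in CA3vsDG (0.76, edgeR adjusted p = 0.0112) and Mt-nd4 in CA1vsCA3 (-0.64, edgeR adjusted p = 0.0261). The replicate block without CA3 replicate 3, also chosen after seeing the data, called 2 members in CA1vsDG and 5 in CA2vsDG, beside 6262 and 7362 of all genes. This fit lost Mt-nd4l in CA1vsCA3 (-0.31, edgeR adjusted p = 0.0660) and Mt-nd5 in CA3vsDG (0.22, edgeR adjusted p = 0.0927). In it Mt-nd6 was at 0.65 (CA1vsCA2), 0.06 (CA1vsCA3) and -0.26 (CA2vsDG), Mt-nd1 at 0.17 and Mt-nd3 at 0.10 in CA2vsCA3, and Mt-nd6 was not called in CA2vsCA3 (-0.59).

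With 16 libraries counted separately Mt-nd6 was at 0.15 in CA1vsCA2, and the Mt-nd6 to Mt-nd5 ratio at 0.17 in CA3vsDG. Leaving out 1 library gave for Mt-nd6 -1.07 to 2.50 (CA1vsCA2), -1.21 to 0.72 (CA1vsCA3), -2.75 to 0.84 (CA2vsCA3), -0.83 to 1.37 (CA1vsDG), -2.36 to 1.50 (CA2vsDG) and -0.58 to 1.62 (CA3vsDG). The same gave -0.19 to 0.02 for Mt-nd4l in CA1vsCA2, -0.16 to 0.10 for Mt-nd1 and -0.21 to 0.02 for Mt-nd3 in CA2vsCA3, and -0.05 to 0.07 for Mt-nd5 in CA1vsDG. For the Mt-nd6 to Mt-nd5 ratio the ranges were 0.23 to 2.25 (CA1vsCA2), -0.38 to 0.95 (CA1vsCA3), -1.99 to 0.02 (CA2vsCA3), -0.47 to 1.01 (CA1vsDG), -2.09 to 0.07 (CA2vsDG) and -0.78 to 0.75 (CA3vsDG). None of the values that turned was called in the fit to 14 libraries, and the cause was not tested. Column sums over genes outside mitochondrial DNA, also chosen beforehand, were not run.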

Other observations

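Among themselves, the members other than Mt-nd6 varied together over the 14 libraries, with Pearson's r of log2 CPM between 0.61 and 0.97 over 15 pairs. The 6 pairs with Mt-nd6 had r between -0.28 and 0.14. The libraries share subfields and numbers, so these values are a description only.

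The gene outside the members whose log2 CPM was most like their mean over the 14 libraries was ENSRNOG00000016497 (r = 0.89). With Mt-nd6 left out of the mean, a choice made after the values were seen, it was ENSRNOG00000034234 (r = 0.96), with a mean of 11357 CPM. The tables used do not pair these identifiers with names.

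Mt-nd4l had more counts than Mt-nd4 in every library, by 3.73 to 8.08 times, although the mature message carries both reading frames. The part of overlapping genes in this was not tested.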
